A study of Mus musculus with 15 samples.

Results

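Toll-like receptors are germline-encoded sensors of microbial and danger-associated molecules. Receptors on the cell surface bind lipids and proteins of microbes (Tlr1, Tlr2, Tlr4, Tlr5 and Tlr6), whereas receptors in endosomes bind nucleic acids (Tlr3, Tlr7, Tlr8, Tlr9 and Tlr13). Bound receptors recruit adaptors such as Myd88 or Ticam1 and, through kinases, activate NF-kB and interferon regulatory factors. In the liver, Kupffer cells, the resident macrophages, are known to carry many of these receptors, and hepatocytes, endothelial cells and stellate cells carry some of them. The 10 genes described here were the named members Tlr1, Tlr2, Tlr3, Tlr4, Tlr5, Tlr6, Tlr7, Tlr8, Tlr9 and Tlr13. Each was found by its symbol among the 37991 gene identifiers of the count table, and all 10 were among the 14258 genes tested.

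The data were RNA-seq read counts from whole liver of female C57BL/6 mice, with 5 libraries per group. Young WT mice were 90 d old, old WT mice were 600 d old, and old S6K1 KO mice, which lack S6K1 (encoded by Rps6kb1) in the whole body, were also 600 d old. WT and KO mice came from heterozygous breeding. No group of young KO mice entered the comparisons, so genotype was compared in old mice only, and in the comparison of old KO with young WT, age and genotype cannot be told apart. Each library was taken as 1 mouse, and p-values judge differences between groups against the spread between these libraries. Values below are counts scaled to library size (CPM) on library sizes scaled by TMM. Group values are mean ± SD (n = 5), and log2 fold changes are from edgeR with their SE.

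Libraries held 21801754 to 38065359 counts, so that 1 read was worth 0.0263 to 0.0464 CPM. Rps6kb1 was 33.3 to 45.4 CPM in the 10 WT libraries and 15.2 to 20.8 CPM in the 5 KO libraries, a log2 fold change of -1.17 (SE 0.0979, adjusted p = 8.54e-06 by edgeR), which goes with the labels although reads remained. Summed over 6 hepatocyte markers, including albumin (Alb), libraries reached 82493 to 145239 CPM. Old WT 7 lay apart on the second principal component, at -44.8, with the other 14 libraries between -16.1 and 30.0, so calls are also given without it. The contrasts of age and genotype share the 5 old WT libraries.

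Tlr1, Tlr2, Tlr6, Tlr7, Tlr8, Tlr9 and Tlr13 had higher means in old WT than in young WT livers and lower means in old KO than in old WT livers, as did Tlr3 by smaller amounts. With age, 2 of the 10 receptors rose, Tlr1 and Tlr2, and none fell, at an adjusted p under 0.05. In comparison, 9.92% of all tested genes rose with age and 8.91% fell. At an unadjusted p under 0.05, 4 receptors were higher with age (Tlr1, Tlr2, Tlr6 and Tlr9), beside 4705 of all 14258 genes that were higher or lower. With loss of S6K1, 2 of the 10 receptors fell, Tlr2 and Tlr9, and none rose, beside 0.421% of all genes that fell and 0.112% that rose. At an unadjusted p under 0.05, 7 were lower, all but Tlr3, Tlr4 and Tlr5, beside 1661 of all 14258 genes that were higher or lower. DESeq2 called 5 lower with genotype (Tlr2, Tlr6, Tlr8, Tlr9 and Tlr13) and limma voom 0, and none higher. Of all genes, DESeq2 called 305 of 14250 and limma voom 23 of 14258 in either direction. Without old WT 7, Tlr2 alone was called with age and 0 receptors with genotype, where the 10 log2 fold changes lay between -1.51 and -0.18. All 10 log2 fold changes of genotype were below zero, with a median of -1.0 over the receptors and 0.000797 over all genes, and they were below zero also under relative log expression (RLE) and upper quartile scaling. The old KO and old WT values did not overlap for 5 receptors (Tlr1, Tlr2, Tlr6, Tlr8 and Tlr9), whereas this held for 3.20% of all genes. In the comparison by age, values did not overlap for 1 receptor, Tlr2, and for 11.4% of all genes. The median log2 fold change of age was 0.65 over the receptors and 0.00797 over all genes. Tlr6 and Tlr9 were near the limit for testing, which asked for 0.361 CPM in at least 5 libraries. Tlr6 reached it in 2 young WT, 5 old WT and 0 old KO libraries, and Tlr9 in 1, 4 and 0. Both therefore entered the test mainly through the group in which they were high, and the counts over the 10 receptors are a description.

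**Figure D1:**
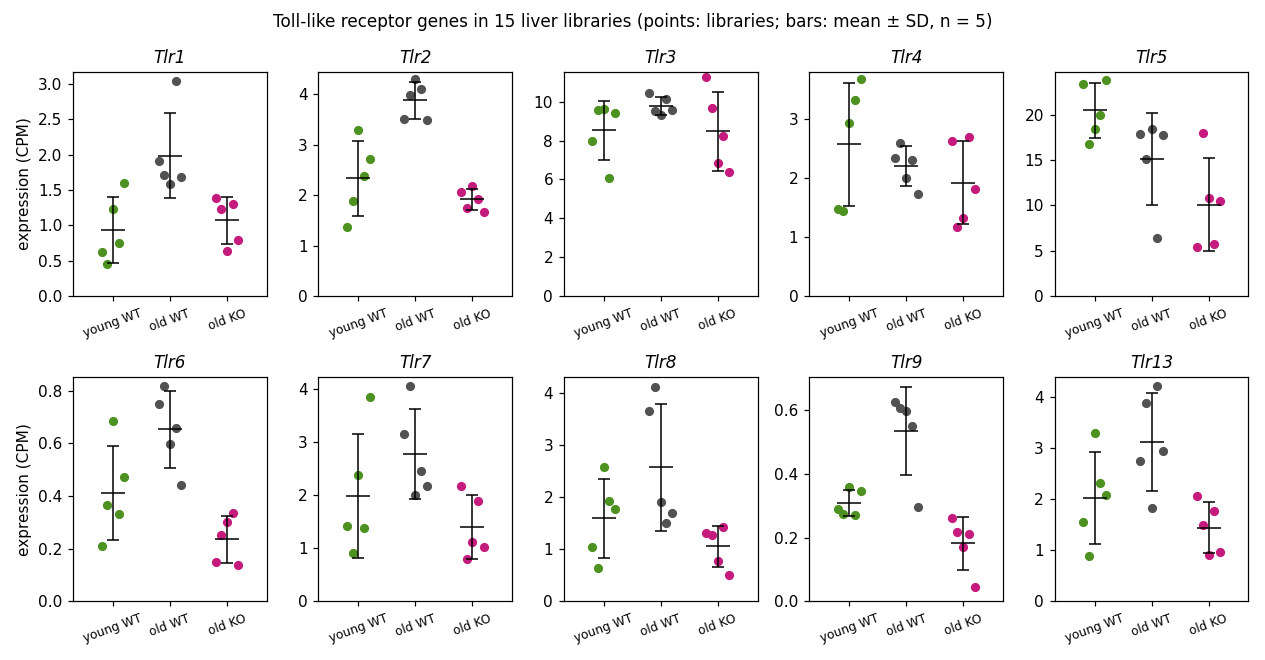
Expression of the 10 Toll-like receptor genes in CPM (linear vertical axes from 0, a different range in each panel) in young WT, old WT and old KO livers. Points are libraries and bars are mean ± SD (n = 5). Old WT points of Tlr2 (3.49 to 4.29 CPM) lie above all points of the other groups, and old KO points of Tlr9 (0.0464 to 0.262 CPM) lie below all others.

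Levels were compared between receptors per length of gene, as RPKM, which is CPM divided by exonic length in kilobases. Tlr5 had the highest mean over the 15 libraries, 4.31 ± 1.72 RPKM (SD, n = 15), followed by Tlr3 at 2.03 ± 0.344 and Tlr2 at 0.899 ± 0.326. Tlr5 exceeded Tlr3 in 12 of 15 libraries, and Tlr3 exceeded Tlr2 in 15 of 15. Tlr13 (0.537 RPKM), Tlr7 (0.502), Tlr1 (0.502), Tlr8 (0.486) and Tlr4 (0.401) lay within each other's spread, and each exceeded the next in this order in 6 to 9 of 15 libraries, apart from Tlr4, the last. Tlr6 (0.167 ± 0.0848 RPKM) and Tlr9 (0.0983 ± 0.0503) were lowest. Tlr4 exceeded Tlr6 in 15 of 15 libraries and Tlr6 exceeded Tlr9 in 13. Ranges of all neighbours in this order overlapped over the libraries. Tlr5 made up 52.7% of the summed RPKM of the 10 receptors in young WT, 37.2% in old WT and 39.1% in old KO livers.

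Tlr2 (ENSMUSG00000027995, chr3:83640195-83645689 of NCBIM37, minus strand) pairs with Tlr1 or Tlr6 to bind bacterial lipopeptides. Tlr2 was 1.37, 1.89, 3.29, 2.38 and 2.72 CPM in young WT livers, 3.50, 3.98, 4.29, 4.11 and 3.49 CPM in old WT livers, and 2.06, 1.74, 2.18, 1.93 and 1.67 CPM in old KO livers. The old WT values were above all others, and the old KO values lay inside the young WT range. Group means were 2.33 ± 0.740, 3.87 ± 0.364 and 1.92 ± 0.214 CPM. Tlr2 rose with age by a log2 fold change of 0.74 (SE 0.188, adjusted p = 0.0134 by edgeR). It fell with loss of S6K1, with a log2 fold change of -1.01 (SE 0.193, adjusted p = 0.0295 by edgeR), and old KO differed from young WT by -0.27 (adjusted p = 0.332 by edgeR). The rise with age was called without any single library, old WT 7 included (log2 fold change 0.73, adjusted p = 0.0226 by edgeR). The fall was not called without old WT 7 (-1.0, adjusted p = 0.0590 by edgeR), and it was called in 2 of the 10 fits that left out a library (without old WT 10 or old KO 1), with log2 fold changes of -1.06 to -0.97 and edgeR adjusted p of 0.0475 to 0.0853.

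Tlr1 was 0.632, 0.458, 1.24, 0.753 and 1.6 CPM in young WT livers, 1.91, 1.71, 1.58, 3.04 and 1.69 CPM in old WT livers, and 1.39, 1.23, 0.642, 1.30 and 0.789 CPM in old KO livers. All old KO values lay below all old WT values, and 4 of 5 old WT values lay above all young WT values. Tlr1 rose with age by a log2 fold change of 1.11 (SE 0.316, adjusted p = 0.0235 by edgeR), from 0.935 ± 0.469 to 1.99 ± 0.602 CPM. The highest old WT value was that of old WT 7, and without this library the log2 fold change was 0.91 and missed the threshold (adjusted p = 0.0532 by edgeR). It also missed it without young WT 1 (adjusted p = 0.0655 by edgeR), young WT 2 (0.0570) or young WT 4 (0.0557). Between genotypes the log2 fold change of Tlr1 was -0.88 (SE 0.316, adjusted p = 0.262 by edgeR).

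Tlr6 was 0.211, 0.366, 0.685, 0.331 and 0.474 CPM in young WT livers, 0.750, 0.818, 0.596, 0.660 and 0.441 CPM in old WT livers, and 0.150, 0.254, 0.300, 0.335 and 0.139 CPM in old KO livers. Old KO values lay below all old WT values. These values rest on 3 to 24 reads per library. The log2 fold change of genotype was -1.45 (SE 0.338, adjusted p = 0.0679 by edgeR), and that of age was 0.68 (adjusted p = 0.132 by edgeR).

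Tlr1 and Tlr6 are neighbours on chromosome 5 (NCBIM37, minus strand), Tlr1 (ENSMUSG00000044827) at chr5:65316050-65324000 and Tlr6 (ENSMUSG00000051498) at chr5:65344345-65351287, and parts of their coding sequences are identical. Of all 50-base stretches, the read length, 454 occur in both genes, which is 17.4% of those of Tlr1 and 17.8% of those of Tlr6. Reads from such a stretch cannot be told apart, so counts of both genes are uncertain to this extent. None of the 50-base stretches of the other 8 receptors was found in a protein-coding transcript of another gene of GENCODE M1. Noncoding transcripts and the rest of the genome were not searched. No exon of the 10 receptors overlaps an exon of another gene. The longest identical run has 229 bases (positions 1698 to 1926 of the Tlr1 transcript and 1653 to 1881 of that of Tlr6), and its first 60 bases are shown to make plain what a short read would see:
Tlr1 and Tlr6 shared: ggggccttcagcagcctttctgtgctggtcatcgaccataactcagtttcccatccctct

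Tlr4 (ENSMUSG00000039005, chr4:66488618-66591318, plus strand) senses lipopolysaccharide of Gram-negative bacteria. Tlr4 was 1.47, 1.43, 2.93, 3.31 and 3.66 CPM in young WT livers, 2.34, 2.60, 2.0, 2.31 and 1.73 CPM in old WT livers, and 2.62, 1.16, 1.33, 2.68 and 1.81 CPM in old KO livers. The groups overlapped in each comparison. The log2 fold change was -0.21 (SE 0.287, adjusted p = 0.639 by edgeR) with age and -0.19 (SE 0.294, adjusted p = 0.867 by edgeR) with loss of S6K1.

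Tlr5 (ENSMUSG00000079164, chr1:184884919-184906175, plus strand) is the receptor of bacterial flagellin. Tlr5 was 23.4, 16.8, 18.4, 19.9 and 23.8 CPM in young WT livers, 17.8, 15.1, 18.4, 6.41 and 17.8 CPM in old WT livers, and 5.39, 18.0, 10.8, 5.74 and 10.4 CPM in old KO livers. In 4 of 5 old KO libraries Tlr5 lay below all young WT values, and the fifth, old KO 2, lay inside their range. The log2 fold change was -0.44 (adjusted p = 0.323 by edgeR) with age and -0.58 (adjusted p = 0.484 by edgeR) with loss of S6K1. Without old WT 7, the lowest of its group, these were -0.23 and -0.78, again not called. From young WT to old KO, where age and genotype differ together, Tlr5 fell by a log2 fold change of -1.02 (SE 0.304, adjusted p = 0.0242 by edgeR). It was the only receptor of the 10 called in this comparison, in which 12.0% of all genes rose and 11.3% fell. The call was lost without young WT 1 (-0.97, adjusted p = 0.0537 by edgeR), old KO 1 (-0.86, adjusted p = 0.0563 by edgeR) or old KO 5 (-0.87, adjusted p = 0.0607 by edgeR).

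Tlr9 (ENSMUSG00000045322, chr9:106124929-106129207, plus strand) senses DNA rich in unmethylated CpG. Tlr9 was 0.290, 0.275, 0.359, 0.271 and 0.345 CPM in young WT livers, 0.625, 0.605, 0.596, 0.550 and 0.294 CPM in old WT livers, and 0.262, 0.218, 0.171, 0.210 and 0.0464 CPM in old KO livers. All old KO values lay below all values of both WT groups, and old WT 10 lay inside the young WT range. Tlr9 fell with loss of S6K1, with a log2 fold change of -1.51 (SE 0.319, adjusted p = 0.0459 by edgeR), from 0.534 ± 0.137 to 0.181 ± 0.0821 CPM. The 5 old WT libraries held 80 reads of Tlr9 in all and the 5 old KO libraries 23, and old KO 6 held 1. Tlr9 reached the limit for testing in 4 old WT and 0 old KO libraries, and the call was lost when no filter was used (-1.52, adjusted p = 0.0839 by edgeR) and with limma voom (adjusted p = 0.0810). The call remained in 2 of 10 fits that left out a library (without old WT 10 or old KO 1) and was lost without old WT 7 (-1.51, adjusted p = 0.0790 by edgeR). With age the log2 fold change was 0.80 (SE 0.286, adjusted p = 0.0610 by edgeR). It was called with age without old WT 10 only (0.95, adjusted p = 0.0291 by edgeR). In old KO against young WT, Tlr9 was the receptor whose groups did not overlap, beside 13.9% of all genes, and its log2 fold change was -0.71 (adjusted p = 0.139 by edgeR).

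Tlr7 (ENSMUSG00000044583, chrX:163742861-163768490) and Tlr8 (ENSMUSG00000040522, chrX:163680626-163702261) sense single-stranded RNA and lie near each other on the minus strand of the X chromosome. Tlr7 was 1.42, 0.916, 2.38, 1.39 and 3.84 CPM in young WT livers, 3.16, 4.05, 2.0, 2.46 and 2.17 CPM in old WT livers, and 2.17, 0.799, 1.11, 1.89 and 1.02 CPM in old KO livers. Of the old KO values, 4 lay below all old WT values, and the log2 fold change of genotype was -0.98 (adjusted p = 0.281 by edgeR). Tlr8 was 1.05, 0.641, 2.58, 1.93 and 1.77 CPM in young WT livers, 3.66, 4.13, 1.91, 1.5 and 1.69 CPM in old WT livers, and 1.31, 1.27, 0.771, 1.43 and 0.511 CPM in old KO livers. All old KO values of Tlr8 lay below all old WT values, though old WT 7 and old KO 5 were close, and the log2 fold change was -1.27 (SE 0.389, adjusted p = 0.174 by edgeR). With age, the log2 fold changes were 0.50 for Tlr7 (adjusted p = 0.340 by edgeR) and 0.70 for Tlr8 (adjusted p = 0.199 by edgeR).

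Tlr13 (ENSMUSG00000033777, chrX:103338543-103355832, plus strand) senses bacterial ribosomal RNA. Tlr13 was 1.55, 0.885, 3.29, 2.32 and 2.07 CPM in young WT livers, 2.75, 3.88, 1.82, 4.22 and 2.94 CPM in old WT livers, and 2.06, 1.49, 0.899, 1.76 and 0.975 CPM in old KO livers. In 4 of 5 old KO libraries Tlr13 lay below all old WT values. The log2 fold change was -1.10 with loss of S6K1 (SE 0.324, adjusted p = 0.157 by edgeR) and 0.62 with age (adjusted p = 0.176 by edgeR). Tlr3 (ENSMUSG00000031639, chr8:46481019-46495962, minus strand), which senses viral RNA duplexes, was 7.98, 9.56, 9.62, 6.09 and 9.40 CPM in young WT livers, 10.4, 9.50, 9.33, 10.1 and 9.56 CPM in old WT livers, and 11.3, 9.66, 6.85, 8.22 and 6.36 CPM in old KO livers. The old WT values of Tlr3 were close together, and the other groups spread to both sides or below them. Its log2 fold change was 0.20 (SE 0.153, adjusted p = 0.382 by edgeR) with age and -0.21 (SE 0.154, adjusted p = 0.664 by edgeR) with loss of S6K1.

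**Figure D2:**
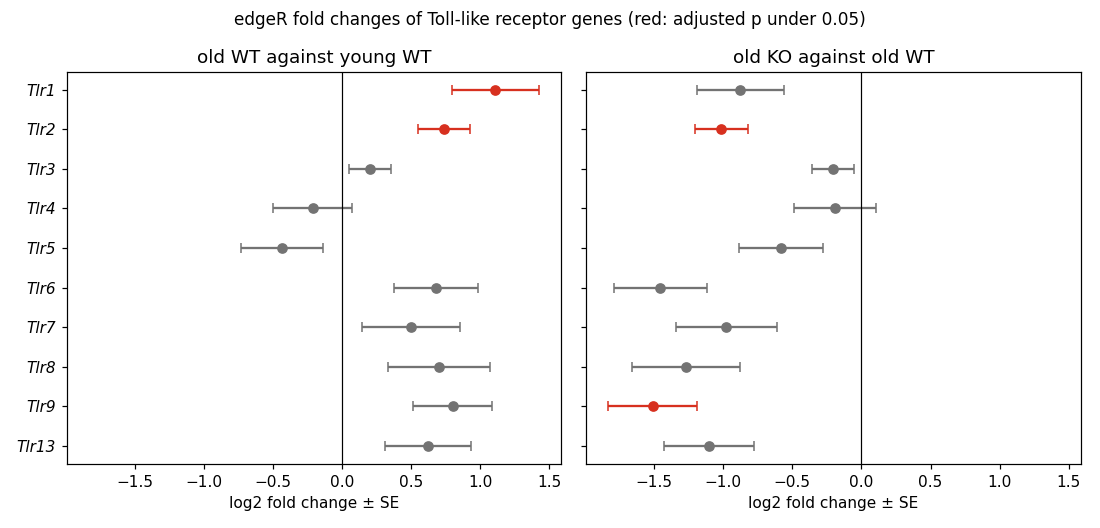
Log2 fold changes of the 10 Toll-like receptor genes from edgeR, with bars of 1 SE, for old WT against young WT and old KO against old WT (both panels share their axes). Red points have an adjusted p under 0.05, which holds for Tlr1 and Tlr2 with age and for Tlr2 and Tlr9 with genotype, and all 10 points of genotype lie left of zero.

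Macrophage markers had lower CPM in old KO than in old WT livers. Summed over 10 markers of Kupffer cells and macrophages (among them Clec4f, Vsig4, Adgre1 and Csf1r), old WT libraries held 233 to 595 CPM (median 398), young WT libraries 190 to 436 CPM (median 369) and old KO libraries 142 to 217 CPM (median 200). All 10 markers were below zero in old KO against old WT, with a median log2 fold change of -1.19, and 4 fell at an edgeR adjusted p under 0.05 (Clec4f, Vsig4, Cd5l and Cd68), with 6 called by DESeq2 and 1 by limma voom. With age, 1 of the 10 rose (Lyz2, log2 fold change 0.94) and 1 fell (Cd163, -1.86), 8 were above zero and the median was 0.33, and DESeq2 and limma voom each called 3 higher and 1 lower. No marker of this list was at 0 in any library. The 3 markers of leukocytes in common, Ptprc, Coro1a and Laptm5, summed to 35.6 to 54.1 CPM in old WT and 18.1 to 34.7 CPM in old KO livers. In bulk tissue, fewer cells of a type and less RNA per cell cannot be told apart, and the part of these markers in the results on the receptors was not tested.

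Of the other lists of leukocyte markers, monocytes had 3 of 4 genes called higher with age (Ly6c2, Ccr2 and Cx3cr1), T cells 2 of 5 (Cd3e and Cd8a), B cells 1 of 5 (Ms4a1), dendritic cells 1 of 6 (Itgax), leukocytes in common 1 of 3 (Coro1a) and neutrophils 0 of 3 by edgeR, with 0 neutrophil markers at an unadjusted p under 0.05, and none was called lower. DESeq2 also called 0 neutrophil markers with age, and limma voom called 0 markers of B cells, T cells and neutrophils. Hepatocyte markers had 3 of 6 called lower with age (Apoa1, Cps1 and Arg1; median -0.61), endothelial cells 2 of 5 (Stab2 and Lyve1), stellate cells 1 of 4 (Reln) and bile duct cells 0 of 4, with 0 at an unadjusted p under 0.05 and 0 by DESeq2 or limma voom. The part of these markers in the values of the receptors with age was not tested. Monocyte markers had 0 of 4 called with genotype (1 at an unadjusted p under 0.05, and 1 by DESeq2). With genotype, none of the 6 dendritic cell, 5 B cell, 5 T cell and 3 tested neutrophil markers was called by edgeR, DESeq2 or limma voom (1, 2, 1 and 1 at an unadjusted p under 0.05 in edgeR), and all tested neutrophil, B cell and T cell markers were below zero. The neutrophil marker Ly6g was at 0 in all young WT and old KO libraries. Markers of endothelial, stellate and bile duct cells had median log2 fold changes of genotype of -0.06, 0.07 and 0.04. Hepatocyte markers had a median of 0.36 with genotype. Of these 4 lists 0 genes were called with genotype by any of the 3 tools, and 0 had an unadjusted p under 0.05 in edgeR.

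The level of a receptor, with 0.1 CPM added, was divided by the summed macrophage markers of the same library. The sum is weighted to markers of high CPM, such as Cd5l, Clec4f and Lyz2 (means of 103, 90.0 and 71.1 CPM in old WT livers), over low ones such as Cd163 (5.03). Within groups, the SD of the log2 ratios ran from 0.123 (Tlr3, old KO) to 0.842 (Tlr5, old KO), and differences between groups were not tested. For Tlr6 and Tlr9, at 0.139 to 0.335 and 0.0464 to 0.262 CPM in old KO livers, the ratio depends strongly on this addition. The mean log2 ratios of old KO and old WT livers differed by 0.28 for Tlr1, 0.14 for Tlr2, -0.06 for Tlr6 and 0.14 for Tlr7. They differed by -0.05 for Tlr8, -0.08 for Tlr9 and 0.05 for Tlr13. They differed by 0.89 for Tlr3, 0.88 for Tlr4 and 0.50 for Tlr5, the old KO ratio being the higher. With age, old WT minus young WT, the mean log2 ratios differed by 0.74 for Tlr1, 0.41 for Tlr2, 0.25 for Tlr6, 0.23 for Tlr7, 0.33 for Tlr8, 0.26 for Tlr9 and 0.31 for Tlr13, and by -0.13 for Tlr3, -0.48 for Tlr4 and -0.87 for Tlr5. For Tlr2 the ratio was -6.64 ± 0.566 in old WT and -6.49 ± 0.295 in old KO libraries (log2, SD, n = 5). In old WT 5 the marker sum was the lowest of the old WT group, 233 CPM, and Tlr2 was the highest of the group, 4.29 CPM.

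**Figure D3:**
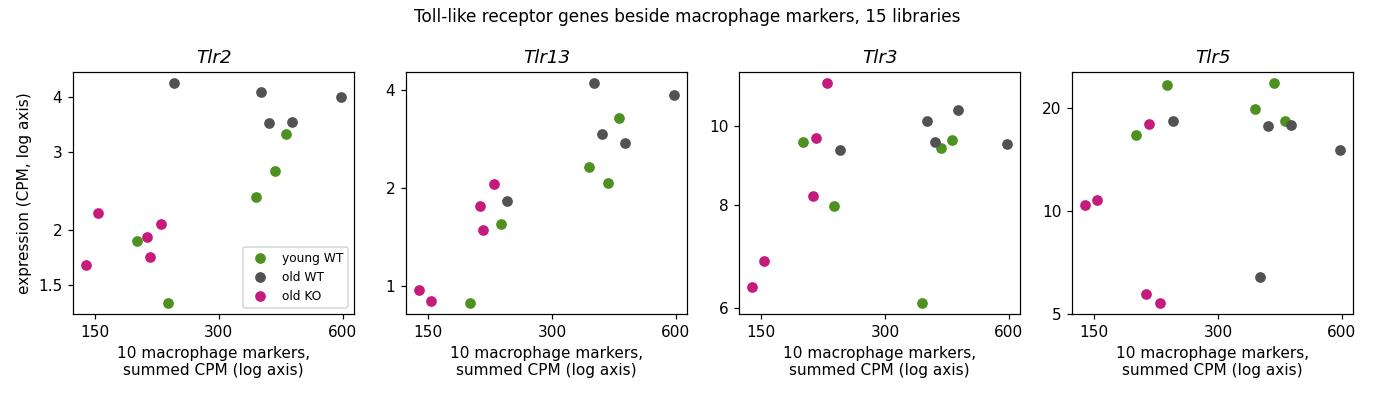
Expression of Tlr2, Tlr13, Tlr3 and Tlr5 in CPM (log vertical axes) against the summed CPM of 10 macrophage markers (log horizontal axis), with 1 point per library, coloured by group. Old KO libraries lie at 142 to 217 CPM of the markers, points of Tlr13 are higher where the markers are higher (r = 0.855 within groups), and points of Tlr5 are not (r = -0.0760).

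Within groups, the receptors differed in how they followed the macrophage markers. Over the 15 libraries, deviations from the group mean of log2 CPM correlated with those of the marker sum at r = 0.855 for Tlr13, 0.840 for Tlr8, 0.718 for Tlr7, 0.663 for Tlr4 and 0.659 for Tlr1. The value was 0.486 for Tlr6, 0.484 for Tlr2, 0.353 for Tlr9, 0.243 for Tlr3 and -0.0760 for Tlr5. Among the receptors themselves, the closest pairs were Tlr4 with Tlr7 (r = 0.809), Tlr1 with Tlr13 (0.792) and Tlr8 with Tlr13 (0.713). Tlr5 was below zero with 8 of the 9 others, lowest with Tlr4 (-0.442). All these values share libraries and depth and are given as a description.

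Among 12124 other genes of at least 1 CPM, those whose deviations were most like Tlr13 were Dock11 (r = 0.956, n = 15 libraries), Lyz2 (0.949) and Dock2 (0.941), and those most like Tlr8 were Siglec1 (0.945), Sdc3 (0.917) and Cttnbp2nl (0.916). Lyz2, lysozyme of myeloid cells, is 1 of the 10 macrophage markers, of which the 50 genes most like a receptor held 3 for Tlr8, 1 for Tlr13 and 0 for each of the other 8. Tlr4 was most like Ncf1 (0.935), a subunit of the phagocyte NADPH oxidase, then Zbtb33 (0.921) and Far1 (0.913), and Tlr1 was most like Ap1s2 (0.919), Ciita (0.891) and Ms4a6b (0.882). Tlr7 was most like Tbl1x (0.910), Zfr (0.901) and Igsf6 (0.897), and Tlr2 most like Cdh2 (0.907), Pkm2 (0.884) and Ikbip (0.877). Tlr5 was most like Sh3pxd2a (0.936), Pnldc1 (0.931) and Fam134c (0.906), and Tlr3 most like Dlg3 (0.877), Thada (0.869) and Rad9 (0.861). Tlr9 was most like Hdgfrp3 (0.937), Enpp5 (0.935) and Il15 (0.914), and Tlr6 most like Hsd3b2 (0.880), Upb1 (0.865) and Mpzl2 (0.852). For Tlr6 and Tlr9, with at most 24 and 20 reads per library, counting error is a large part of such deviations.

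Spi1 encodes PU.1, a transcription factor that myeloid cells and B cells require. Spi1 was 6.12, 5.44, 3.58, 4.22 and 4.93 CPM in old WT livers and 2.58, 1.96, 1.63, 2.56 and 1.62 CPM in old KO livers. The groups did not overlap, and Spi1 fell with loss of S6K1, with a log2 fold change of -1.22 (SE 0.229, adjusted p = 0.0290 by edgeR). The call held in 3 of 10 fits that left out a library, those without old WT 5, old WT 7 (-1.27, adjusted p = 0.0475 by edgeR) or old KO 1, and the adjusted p reached 0.0911 in the others. In young WT livers Spi1 was 2.79, 2.26, 5.31, 3.68 and 4.01 CPM, and its log2 fold change of age was 0.43 (adjusted p = 0.181 by edgeR).

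The promoters of the receptors were searched for the core that PU.1 binds, GAGGAA on either strand. Binding of PU.1 was not tested, and neither was a part of Spi1 in the levels of the receptors. RefSeq promoters (GRCm38.p6, 250 bases before a start) were given for 8 of the 10 receptors, in 10 windows, with none for Tlr4 and Tlr7. The core was present in 4 of these 10 windows, 1 each of Tlr1, Tlr8, Tlr9 and Tlr13, and in 23.3% of all 32851 windows of the same length. The 120 bases before the start are shown for these 4 genes and for Tlr2, which fell with loss of S6K1 and whose window holds no core. All are written in the direction of transcription, with the core in capitals (TTCCTC where it lies on the other strand):
Tlr1 (chr5:64933559-64933678, minus strand): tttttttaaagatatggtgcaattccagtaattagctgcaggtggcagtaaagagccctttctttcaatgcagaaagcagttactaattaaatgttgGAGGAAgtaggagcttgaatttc
Tlr8 (chrX:167264330-167264449, minus strand): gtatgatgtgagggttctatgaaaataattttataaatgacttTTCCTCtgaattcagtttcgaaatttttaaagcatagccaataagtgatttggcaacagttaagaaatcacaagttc
Tlr9 (chr9:106222478-106222597, plus strand): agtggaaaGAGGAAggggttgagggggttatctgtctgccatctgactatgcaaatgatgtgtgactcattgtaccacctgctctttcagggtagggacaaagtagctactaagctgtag
Tlr13 (chrX:106143155-106143274, plus strand): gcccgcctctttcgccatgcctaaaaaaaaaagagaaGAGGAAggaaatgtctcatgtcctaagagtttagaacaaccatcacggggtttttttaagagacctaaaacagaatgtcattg
Tlr2 (chr3:83841609-83841728, minus strand): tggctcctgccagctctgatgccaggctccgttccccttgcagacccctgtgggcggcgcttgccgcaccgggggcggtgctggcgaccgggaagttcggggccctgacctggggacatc

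Counted from the start, the cores began at -23 in Tlr1, -77 in Tlr8, -112 in Tlr9 and -83 in Tlr13. The Tlr1 window is that of the more upstream of 2 starts, and the other start had no core. GAAA repeated after any 2 bases, which interferon regulatory factors bind, was also searched on both strands. It was found in Tlr6 only and in 2.98% of all windows. GGG followed after any 2 bases by TTTCC, a form of the NF-kB site, was searched likewise. It was found in Tlr3 only and in 1.41% of all windows. Other forms of this site were not searched, so a window without this form may still hold an NF-kB site. TATAAA was found in Tlr6 and Tlr8 and in 12.4% of all windows. In Tlr6, 2 matches of the GAAA repeat overlapped each other, and the matches of TATAAA lay in the window of its other start. The 2 matches of TATAAA in Tlr8 overlapped each other, and no match of the PU.1 core overlapped another. These matches are a description of the letters in the windows.

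Of 56 other genes of Toll-like receptor signalling, 55 were tested. With age 7 rose and 3 fell, beside 9.92% and 8.91% of all genes. With loss of S6K1 none rose and 3 fell (Cd14, Lgmn and Spi1), beside 0.112% and 0.421% of all genes. With genotype, DESeq2 called 3 genes of co-receptors and ligand transfer and 3 of receptor processing. It also called 1 gene of the list of kinases and ubiquitin ligases and 2 transcription factors. All were lower, and limma voom called 0. Over all genes, DESeq2 called 305 of 14250 with genotype and limma voom 23 of 14258. Median log2 fold changes over the 55 were 0.10 with age and -0.07 with genotype, beside -1.0 with genotype over the 10 receptors.

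Among 6 co-receptors and proteins that carry ligands, Ly86 rose with age and Cd14 fell with loss of S6K1. Cd14, which hands lipopolysaccharide to Tlr4, was 2.91, 3.73, 3.70, 5.42 and 4.15 CPM in old WT livers and 2.13, 2.11, 1.46, 1.93 and 2.0 CPM in old KO livers. The groups did not overlap, and the log2 fold change was -1.04 (SE 0.185, adjusted p = 0.0247 by edgeR), also called without old WT 7 (-0.91, adjusted p = 0.0475 by edgeR). The call held in 5 of 10 fits that left out a library (without old WT 1, 5, 7 or 10 or old KO 1), and the adjusted p reached 0.0749 in the others. In young WT livers Cd14 was 5.34, 5.53, 4.86, 5.15 and 3.23 CPM, and its log2 fold change of age was -0.28 (adjusted p = 0.274 by edgeR). Ly86, also called MD-1, which binds the receptor Cd180, had a log2 fold change of 0.85 with age (adjusted p = 0.0172 by edgeR) and -0.88 with genotype (adjusted p = 0.109 by edgeR). Ly96 (MD-2, the partner of Tlr4) had log2 fold changes of 0.10 with age and 0.09 with genotype, and Lbp, the plasma protein that binds lipopolysaccharide, of -0.07 and 0.05, none of them called.

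Of 8 genes for folding, traffic and endosomal processing of the receptors, the protease Ctsb rose with age and the protease Lgmn fell with loss of S6K1. Ctsb had a log2 fold change of 0.64 with age (SE 0.0869, adjusted p = 0.000367 by edgeR). Lgmn, which can cleave endosomal receptors, had -0.68 with genotype (SE 0.136, adjusted p = 0.0377 by edgeR) and was not called without old WT 7 (-0.67, adjusted p = 0.0665 by edgeR). Lgmn was called in 2 of 10 fits that left out a library, those without old WT 5 or old KO 1. Unc93b1, which brings nucleic acid receptors to endosomes, had 0.25 with age (adjusted p = 0.0745 by edgeR) and -0.43 with genotype (adjusted p = 0.0652 by edgeR). When 1 library was left out, Unc93b1 was called with age in 2 of 10 fits (without young WT 6 or old WT 7). With genotype it was called in 2 of 10 (without old WT 7 or old KO 1), and among the other alternatives by DESeq2 only.

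None of 7 adaptors and none of 18 kinases and ubiquitin ligases was called with genotype by edgeR, with 1 and 4 at an unadjusted p under 0.05. Myd88, the adaptor of most of these receptors, had log2 fold changes of 0.02 with age and -0.07 with genotype (edgeR adjusted p = 0.913 and 0.892). Ticam1 (TRIF), the adaptor of Tlr3 and Tlr4, fell with age by a log2 fold change of -0.50 (adjusted p = 0.0406 by edgeR) and had 0.15 with genotype. Tirap had -0.18 and 0.23, and Ticam2 0.01 and -0.45, with age and genotype, none called. Among kinases, Irak4 (0.31, adjusted p = 0.0279 by edgeR) and Ikbkb (0.32, adjusted p = 0.00612 by edgeR) rose with age and Tbk1 fell (-0.24, adjusted p = 0.0479 by edgeR). When 1 library was left out, Ticam1 was called in 4 of 10 fits (without young WT 3 or 6 or old WT 1 or 10), Irak4 in 4 (without young WT 3 or 6 or old WT 7 or 10) and Tbk1 in 1 (without old WT 10), whereas Ikbkb was called in all 10. Without old WT 7 the log2 fold changes of Ticam1 and Tbk1 were -0.46 (adjusted p = 0.0731 by edgeR) and -0.21 (adjusted p = 0.10 by edgeR). The ubiquitin ligase Traf6 had log2 fold changes of 0.04 and -0.18 with age and genotype, neither called.

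Of 7 transcription factors, Irf7, which drives type I interferon genes, rose with age by a log2 fold change of 1.10 (SE 0.181, adjusted p = 0.00121 by edgeR). Its log2 fold change of genotype was -0.83 (SE 0.181, adjusted p = 0.0530 by edgeR), and old KO and old WT values did not overlap. With genotype, Irf7 was called under 5 of 9 alternatives besides leaving out a library, among them DESeq2 but not limma voom. It was also called in 2 of 10 fits that left out a library (without old WT 7 or old KO 1). Irf3 had 0.19 and 0.17, and Irf5 0.12 and -0.16, with age and genotype, none called in the reported fit. Old KO values of Irf3 lay above all old WT values (unadjusted p = 0.0276 by edgeR), and 0 of 9 alternatives besides leaving out a library called it with genotype. With age, Irf3 was called by DESeq2, with upper quartile scaling and in 1 of 10 fits that left out a library (without old WT 7). Of 7 tested inhibitors of signalling, Sigirr (0.41, adjusted p = 0.00425 by edgeR) and Tnfaip3 (0.71, adjusted p = 0.00906 by edgeR) rose with age and none was called with genotype, with 1 at an unadjusted p under 0.05. Irak3 had log2 fold changes of 0.44 and -0.33, and Tollip of 0.10 and -0.06. Of the receptors outside the 10 members, Tlr12 fell with age by -0.81 (adjusted p = 0.0149 by edgeR) and had -0.69 with genotype (adjusted p = 0.184 by edgeR), and Tlr11 was called in neither comparison.

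**Figure D4:**
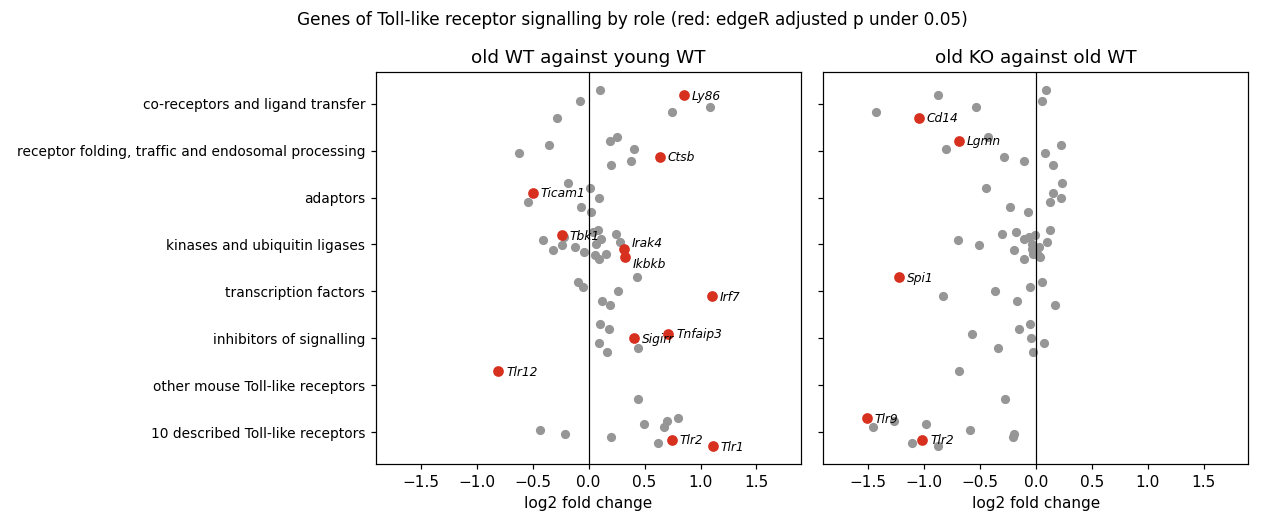
Log2 fold changes from edgeR of tested genes of Toll-like receptor signalling, with 1 row per role and 1 point per gene, for old WT against young WT and old KO against old WT. Red, named points have an adjusted p under 0.05. With genotype these are Cd14, Lgmn, Spi1, Tlr2 and Tlr9, all left of zero. Points of adaptors, of kinases and ubiquitin ligases, and of inhibitors lie between -0.70 and 0.23.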

How the data were processed

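Stranded poly(A) libraries of whole liver were read as single-end 50-base reads and mapped to mm9 with TopHat2 2.0.11 by the authors, who deposited raw read counts per gene, made with HTSeq. Annotation and strand setting of the counting were not given in the sources used here. Groups came from the sample titles. Positions and lengths were from GENCODE M1 on NCBIM37 (37205 of 37991 identifiers matched). Counts were tested in edgeR 4.0.16 under R 4.3.3 (TMM, filterByExpr, glmQLFit and glmQLFTest on all 15 libraries, group as the only term), with Benjamini-Hochberg adjustment over 14258 genes and a threshold of 0.05. Log2 CPM used a prior count of 2. The ratios to macrophage markers and an exact permutation test added for Tlr6 and Tlr9 used CPM + 0.1 on the log2 scale. Totals of 21801754 to 38065359 counts make counting error large for Tlr6 and Tlr9. On simulated counts for 14258 genes, 68.7% (age) and 71.7% (genotype) of genes changed by 1 on the log2 scale were recovered. The changed genes were drawn at random from genes of all levels and were few. These shares therefore do not give the recovery for receptors with few reads.

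The members, lists and named genes were chosen with earlier results of these data known. Named were the 10 receptors, Rps6kb1, list genes called with age or genotype together with 15 listed genes (Cd14, Ly96, Lbp, Unc93b1, Myd88, Tirap, Ticam1, Ticam2, Irak4, Traf6, Irf3, Irf5, Irf7, Irak3 and Tollip), and the 3 genes most like each receptor. An exact test planned for receptors below the filter applied to none. Alternatives were RLE and upper quartile scaling, other filters, DESeq2 1.42.0, limma voom 3.58.1, only the 10 libraries compared, a replicate block, thinned counts and leaving out each library.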

Additional observations from a re-analysis of the deposited data

Results flagged for a closer look

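Of 30 sets of 5 values (10 receptors in 3 groups), 3 held a library far from the others by Dixon's test at the 95% level, and chance flags about 1 in 20 such sets. Tlr1 in old WT 7 was 3.04 CPM, with the nearest old WT library at 1.91 CPM. Tlr5 in old WT 7 was 6.41 CPM, with the nearest at 15.1 CPM. Tlr9 in old WT 10 was 0.294 CPM, with the nearest at 0.550 CPM.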

How the results depend on the processing

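Fits that left out a library are given below. Under every other alternative except the replicate block, 2 receptors were called with age. Old KO against young WT gave 1 under each of these alternatives, the block included. With genotype 2 were called, but 5 with DESeq2 (Tlr2, Tlr6, Tlr8, Tlr9 and Tlr13), 1 without a filter or from the 10 libraries compared (Tlr2), and 0 with limma voom or thinned counts. In the reported edgeR fit 7 had an unadjusted p under 0.05, beside 1661 of all 14258 genes. Of all genes, 76 were called with genotype in that fit, 305 with DESeq2, 82 without a filter and 95 from the 10 libraries compared. Limma voom called 23 and thinned counts gave 72. The cause of these differences was not tested, apart from Tlr9, which had too few reads to enter the fits of 10 libraries and of thinned counts. All receptors tested were below zero with genotype under each of these alternatives. Tlr6 and Tlr9 rest on at most 24 and 20 reads per library, so depth limits their values.

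Leaving out each library gave 1 to 3 receptors with age, 0 to 2 with genotype and 0 to 1 in old KO against young WT. With genotype 0 were called without any of old WT 1, 4, 5 and 7 or old KO 2, 4, 5 and 6. With age 1 was called without young WT 1, 2 or 4 or old WT 7, and 3 without young WT 3 (Tlr6 also) or old WT 10 (Tlr9 also). Values near zero changed sign when libraries were left out, and their log2 fold changes ranged with age from -0.00627 to 0.29 (Ly96), -0.0280 to 0.0780 (Myd88), -0.12 to 0.15 (Ticam2) and -0.0108 to 0.0711 (Traf6), and with genotype from -0.0261 to 0.19 (Ly96), -0.00519 to 0.12 (Lbp), -0.15 to 0.0145 (Myd88), -0.10 to 0.00878 (Irak4), -0.0530 to 0.0433 (Tbk1) and -0.00518 to 0.0503 (Ikbkb). Tlr3 in old KO against young WT ranged from -0.13 to 0.0816. With limma voom, Ticam2 was -0.0169 with age and Tlr3 was 0.00889 in old KO against young WT, where thinned counts gave 0.0621 for Tlr3. The exact test planned for receptors below the filter had none to test and was not run. An exact permutation test of Tlr6 and Tlr9, added after their values were seen, gives its smallest possible p wherever groups do not overlap, and adds nothing to that.

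Replicate numbers shared between groups did not pair the libraries, since deviations of same-numbered libraries correlated at -0.153 to 0.0770. With the replicate block, 0 receptors were called with age and 0 with genotype, and 1 (Tlr5) in old KO against young WT. All genes called went from 2685 to 899 with age and from 76 to 6 with genotype. Under this block Irf5 was -0.0517 with age, Ly96 -0.0481 with genotype and Tlr3 0.0550 in old KO against young WT.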

Other observations

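In old KO against young WT livers, in which age and genotype cannot be told apart, 7 of the 55 tested pathway genes rose and 9 fell, beside 12.0% and 11.3% of all genes. Of the co-receptors, Cd14 fell by a log2 fold change of -1.33 (adjusted p = 0.000254 by edgeR). The receptor Tlr12 fell by -1.49 (adjusted p = 0.000329 by edgeR) and Spi1 by -0.79 (adjusted p = 0.0213 by edgeR). Of the kinases and their partners, Tab1, which binds the kinase Map3k7, fell by -1.11 (adjusted p = 0.00150 by edgeR), Map3k8 by -0.75 (adjusted p = 0.0155 by edgeR) and Irak2 by -0.51 (adjusted p = 0.0285 by edgeR), whereas Ripk1 rose by 0.38 (adjusted p = 0.0292 by edgeR) and Ikbkb by 0.36 (adjusted p = 0.00258 by edgeR). Irf3 rose by 0.36 (adjusted p = 0.00228 by edgeR), as did the inhibitor Sigirr, also by 0.36 (adjusted p = 0.00617 by edgeR). Of these, Tab1, Map3k8, Irak2 and Ripk1 were named after their values were seen.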
